A study of Mus musculus with 6 samples.

Results

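POMC neurons of the mouse hypothalamus were selected here as cells with at least 5 UMIs of Pomc and at most 2 UMIs summed over Agrp and Cga. A UMI (unique molecular identifier) stands for 1 captured transcript. A cell also needed at least 300 detected genes, at most 20% of its UMIs in mitochondrial genes, and at least 1 UMI summed over the 4 neuron genes Snap25, Syt1, Snhg11 and Meg3. The rule kept 54 of the 9449 cells that passed the filters on genes and mitochondrial UMIs, out of 13994 deposited cell barcodes. Because measured counts chose these cells, the 7 genes of the rule are described with no test in the selected cells. Pomc was tested between genotypes only over all passing cells, which it did not choose.

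POMC neurons lie in the arcuate nucleus. They make proopiomelanocortin, a precursor that prohormone convertases and carboxypeptidase E cut into α-melanocyte-stimulating hormone, β-endorphin and other peptides. Melanocortin peptides act on the receptors MC3R and MC4R and lower food intake, and AgRP, made by neighbouring arcuate neurons together with neuropeptide Y, blocks the same receptors. POMC neurons are known to differ among themselves in their fast transmitter, in co-released peptides such as CART (from Cartpt), and in receptors for leptin, serotonin, GLP-1 and oestrogen.

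The cells came from 6 Drop-seq libraries of hypothalamus from C57BL/6J mice aged 8 weeks: 3 from WT animals (WT1, WT2 and WT3) and 3 from IDOL KO animals (KO1, KO2 and KO3). IDOL, the ubiquitin ligase encoded by Mylip, marks lipoprotein receptors of the LDL receptor family for breakdown, and the comparison of the genotypes asks what its loss does to hypothalamic cells. The labels named no treatment, did not say which part of Mylip was deleted or in which cells, and gave no animal for each library, so p-values measure the spread between libraries, which may be technical. Libraries were prepared on 2 days with the groups mixed, and which library belongs to which day is not given in the sources used here, so day entered no test. Passing cells numbered 1047 to 1953 a library, with 1538558 to 3705810 UMIs. Mylip checked the labels: over all passing cells it had 68, 27 and 44 UMIs (WT1 to WT3), against 2, 0 and 0 (KO1 to KO3). Triplets of values below follow the same order.

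WT1 gave 15 of the 54 cells, WT2 gave 12 and WT3 gave 4, while KO1 gave 11, KO2 gave 5 and KO3 gave 7. Their median was 3676.5 UMIs and 2093.5 genes a cell. In total they held 302939 UMIs. Other neurons were defined as passing cells with at least 5 UMIs over the 4 neuron genes, at most 2 of Pomc and at most 2 over Agrp and Cga, and numbered 3187 at a median of 1487 UMIs. AgRP cells, chosen by the mirrored rule (at least 5 Agrp UMIs, at most 2 over Pomc and Cga), numbered 103 at a median of 3252 UMIs. No barcode was shared by 2 libraries among passing cells. Scrublet called 116 of the passing cells doublets, 1.23% of them, and 1 of these was a POMC cell.

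One WT3 cell went against the label. It held 59075 UMIs, 5 of them Pomc, 0 of Snap25 and 0 of Syt1, and it met the neuron criterion through 1 UMI of Snhg11 and 10 of Meg3. It carried 275 UMIs of Ccdc153, 234 of Tmem212 and 59 of Foxj1, genes of motile cilia, against 0, 2 and 1 in the other 53 cells together. This cell, called the Foxj1 and Ccdc153 cell below, gave 19.5% of all UMIs of the 54 cells and 76.4% of those from WT3. Counts of called genes and the share of POMC cells are therefore given with the 54 cells and again with the 53, a choice made after the data were seen. In the 53 cells the neuron genes made up at least 0.482% of the UMIs, against 0.0186% in that cell. Without it, WT3 rested on 3 cells.

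The promoters of Pomc and Cartpt are shown here because the cells were chosen by the first and carried the second without being chosen for it. Pomc lies on chromosome 12 (GRCm38, 3954951 to 3960642, plus strand) and Cartpt on chromosome 13 (99898489 to 99901091, minus strand), both protein-coding. The sequences run from 250 bases before to 50 after the RefSeq start on GRCm38.p6, Pomc at chr12:3954695-3954994 on the plus strand and Cartpt at chr13:99900634-99900933 on the minus strand, 5′ to 3′. Capitals mark exact matches to 3 motifs searched on both strands: TATAAA, the TATA box, TAATTA, a pair of homeodomain cores, and TGACGTCA, the cyclic AMP response element.
Pomc: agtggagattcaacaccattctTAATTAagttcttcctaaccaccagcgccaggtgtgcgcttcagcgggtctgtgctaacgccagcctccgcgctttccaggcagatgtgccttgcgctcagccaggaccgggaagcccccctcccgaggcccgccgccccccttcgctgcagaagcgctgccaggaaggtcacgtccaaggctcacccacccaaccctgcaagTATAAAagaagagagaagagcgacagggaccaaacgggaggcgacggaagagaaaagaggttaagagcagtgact
Cartpt: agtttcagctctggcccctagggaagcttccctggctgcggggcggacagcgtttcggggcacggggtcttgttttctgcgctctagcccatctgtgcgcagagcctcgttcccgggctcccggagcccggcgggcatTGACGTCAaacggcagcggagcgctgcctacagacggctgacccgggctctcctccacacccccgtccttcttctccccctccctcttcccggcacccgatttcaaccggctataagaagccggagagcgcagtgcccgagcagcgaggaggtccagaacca
The Pomc window held TATAAA 1 time and TAATTA 1 time, and the Cartpt window held TGACGTCA 1 time. Of 32544 RefSeq promoters of this length, 13.6% held TATAAA, 5.29% held TAATTA and 1.80% held TGACGTCA. The E-box letters CANNTG, left in lower case, occurred 2 times in the Pomc window and 1 time in the Cartpt window, and in 72.3% of promoters. The matches do not overlap, and they describe letters in these windows, not binding.

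Pomc itself varied widely among the cells that it chose. Its UMIs ran from 5 to 551 with a median of 27. In all, 12 cells had 5 to 9, 42 had 10 or more and 9 had over 100. The 4 highest cells held 1712 of the 3534 Pomc UMIs (48.4%). A single cell carried 89.6% of the Pomc UMIs of WT3 and 71.1% of those of KO1, against 28.2% in KO3. Summed over the cells of a library, Pomc reached 11665, 14606 and 7956 UMIs per 1000000 (CPM) for WT and 14675, 12112 and 11303 for KO. The WT and KO libraries overlapped, and WT3 was lowest with the Foxj1 and Ccdc153 cell included.

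Few passing cells lay just below the threshold. The 54 cells held 91.4% of the 3868 Pomc UMIs of all passing cells. Another 283 passing cells had Pomc, 245 of them with 1 UMI and 29 with 2. Only 9 met the other criteria with 3 or 4 Pomc UMIs, and 3 of these had a Cartpt UMI. They had 290 CPM of Pomc and a median of 2366 UMIs. Other neurons, limited to 2 Pomc UMIs a cell by their definition, had 16.0 to 26.3 CPM of Pomc. Oligodendrocyte-marker cells were passing cells with at least 5 UMIs over Mog, Mag, Cldn11 and Ermn and none of Snap25, Syt1 or Snhg11. They should lack Pomc and had 4.15 to 17.0 CPM. Because cells with those neuron genes were left out, their levels and shares here and below can understate stray neuron RNA. Whether free RNA in droplets gave these reads was not tested.

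Cartpt, which encodes the CART peptides, was not used by the rule. It was read in 41 of the 54 cells with 2499 UMIs in all, of which 5 cells held 1546. Its level was 12808, 8205 and 3131 CPM for WT, and 12316, 6870 and 3898 CPM for KO. Without the Foxj1 and Ccdc153 cell, WT3 stood at 13223 CPM. Other neurons had 257 to 597 CPM and AgRP cells 289 to 1254 CPM, so that the lowest POMC library lay above both ranges. The 13 cells with no Cartpt UMI were not all shallow. Of these, 10 had at least 2000 UMIs, and their median was 3306 UMIs against 3733 in the 41 others. These 13 cells were 5 in WT1, 2 in WT3, 1 in KO1, 3 in KO2 and 2 in KO3, and none in WT2. Across the 53 cells Pomc and Cartpt per 10000 UMIs had a Spearman correlation of 0.56, given as a description over cells that share 6 libraries and whose first axis was used to choose them.

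**Figure D1:**
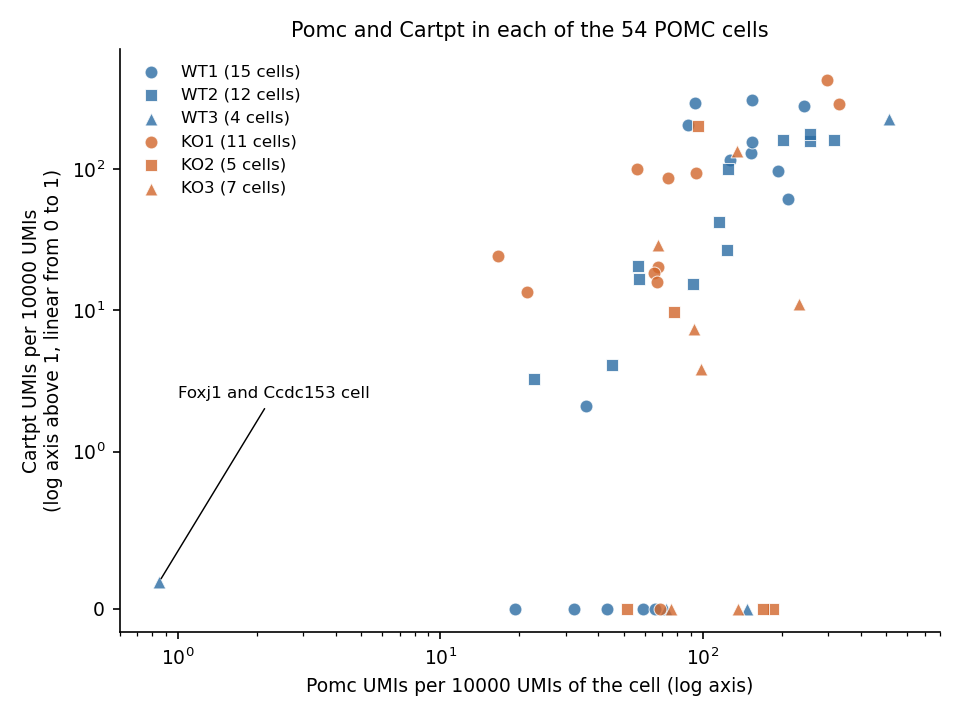
Pomc (x axis) and Cartpt (y axis) in UMIs per 10000 UMIs of the cell, 1 point for each of the 54 POMC cells, coloured by genotype (WT blue, KO orange) and shaped by library. The 13 cells at the bottom have no Cartpt UMI and come from 5 of the 6 libraries, and the Foxj1 and Ccdc153 cell lies far to the left of the other 53.

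The markers given for POMC neurons were checked against the data. Tbx3, a T-box transcription factor, was read in 31 of 53 cells (58.5%, exact 95% binomial interval 44.1 to 71.9%), and Asb4, an ankyrin repeat protein of the arcuate nucleus, in as many. Other neurons had 7.62% for Tbx3 and 12.5% for Asb4, and AgRP cells, of similar depth, had 36.9% and 51.5%. With every cell thinned to 1000 UMIs the shares were 26.7% and 28.9% in POMC cells against 4.35% and 7.93% in other neurons. Oligodendrocyte-marker cells, which should lack both genes and had a median of 1082 UMIs, gave 0.0895% and 0 of 1117 cells, which allows up to 0.269% (3 counts). Crabp1, a retinoic acid binding protein, was read in 7 of 53 cells (13.2%, 5.48 to 25.3%) with 19 of its 27 UMIs in WT1, and its level did not pass against other neurons by edgeR's quasi-likelihood test (log2 fold change -1.11 ± 0.47 SE, adjusted p = 0.303). Cartpt, Tbx3 and Asb4 were thus higher than in other neurons (values below), while Crabp1 did not pass. Intervals and limits here cover counting error only.

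Markers of other cell types were counted as whole lists in the 53 cells, and their part in the results was not tested. All 4 corticotroph and melanotroph markers in the table, Tbx19 and Crhr1 among them, had 0 UMIs, as did Tshb, Lhb and Cga, the last limited by the rule. Of the 5 AgRP neuron markers Otp and Corin were at 0, and the list summed to 49.2 CPM, 0 to 112 a library, against 13957 to 26154 CPM in AgRP cells. Agrp is part of this sum and was used to choose both sets, so its share of the contrast was fixed by the selection. Of the others, Npy had 8.20 CPM against 13701 in AgRP cells and Acvr1c 36.9 against 450. Otp and Corin had 626 and 39.6 CPM in AgRP cells. Oligodendrocyte markers (7 of 7 detected) summed to 121 to 520 CPM a library and astrocyte markers (6 of 6) to 0 to 360 CPM. Microglia markers (0 of 6) had 0 UMIs. Endothelial markers (2 of 5, with Cldn5, Pecam1 and Ly6c1 at 0) summed to 0 to 110 CPM, tanycyte markers (5 of 6, Crym at 0) to 0 to 195 CPM and red blood cell markers (3 of 4) to 0 to 60.3 CPM.

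Both fast transmitter types were present. Gad1 and Gad2 encode the enzymes that make GABA, Slc32a1 the transporter that loads it into vesicles, and Slc17a6 the vesicular glutamate transporter VGLUT2. Of the 53 cells, 24 had UMIs of Gad1 or Gad2 and none of Slc17a6, 6 had Slc17a6 and neither Gad gene, 10 had both and 13 had none of them. Among the 40 cells with at least 2000 UMIs the counts were 20, 5, 10 and 5. Gad2 was read in 31 cells (58.5%), Gad1 in 21 (39.6%) and Slc17a6 in 16 (30.2%). Oligodendrocyte-marker cells, which should lack these genes, had 0.985%, 0.716% and 0.537%. Since Snap25, Syt1 and Snhg11 had to be absent from them, these shares can understate stray neuron RNA. Slc32a1 was read in 0 of 53 cells, which allows a share of up to 5.66% (3 counts; the exact 95% interval is 0 to 6.72%), while it was read in 20.4% of other neurons and 37.9% of AgRP cells. With cells thinned to 1000 UMIs, for which 45 POMC cells were deep enough, Slc32a1 was still at 0 (0 to 7.87%) against 12.7% in other neurons (11.3 to 14.2%) and 10.9% in AgRP cells (5.34 to 19.1%). Gad1 was read in 4.44% of the thinned POMC cells (0.543 to 15.1%) against 19.4% of other neurons, the reverse of the order of the unthinned shares, so no order is read from it. Gad2 stood at 40.0% in the thinned POMC cells (25.7 to 55.7%), against 31.4% in other neurons and 34.8% in AgRP cells. Slc17a6 was read in 3 of 103 AgRP cells (2.91%, 0.605 to 8.28%), against an interval of 18.3 to 44.3% for POMC cells. These intervals pool the cells of 6 libraries and cover counting error only, so they test no difference between the sets. Slc17a6 UMIs in POMC cells were 4, 8 and 1 for WT and 14, 2 and 3 for KO. Thinned, Slc17a6 stood at 8.89% in POMC cells (2.48 to 21.2%) and at 0 in AgRP cells (0 to 3.93%), intervals that overlap. Against other neurons the order of Slc17a6 reversed with thinning, from 30.2% against 20.2% to 8.89% against 14.9%, so no order is read from it. The Cartpt-negative and Cartpt-positive cells were not compared by a test: 8 of 13 and 26 of 40 had a Gad UMI, and 5 of 13 and 11 of 40 had one of Slc17a6.

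**Figure D2:**
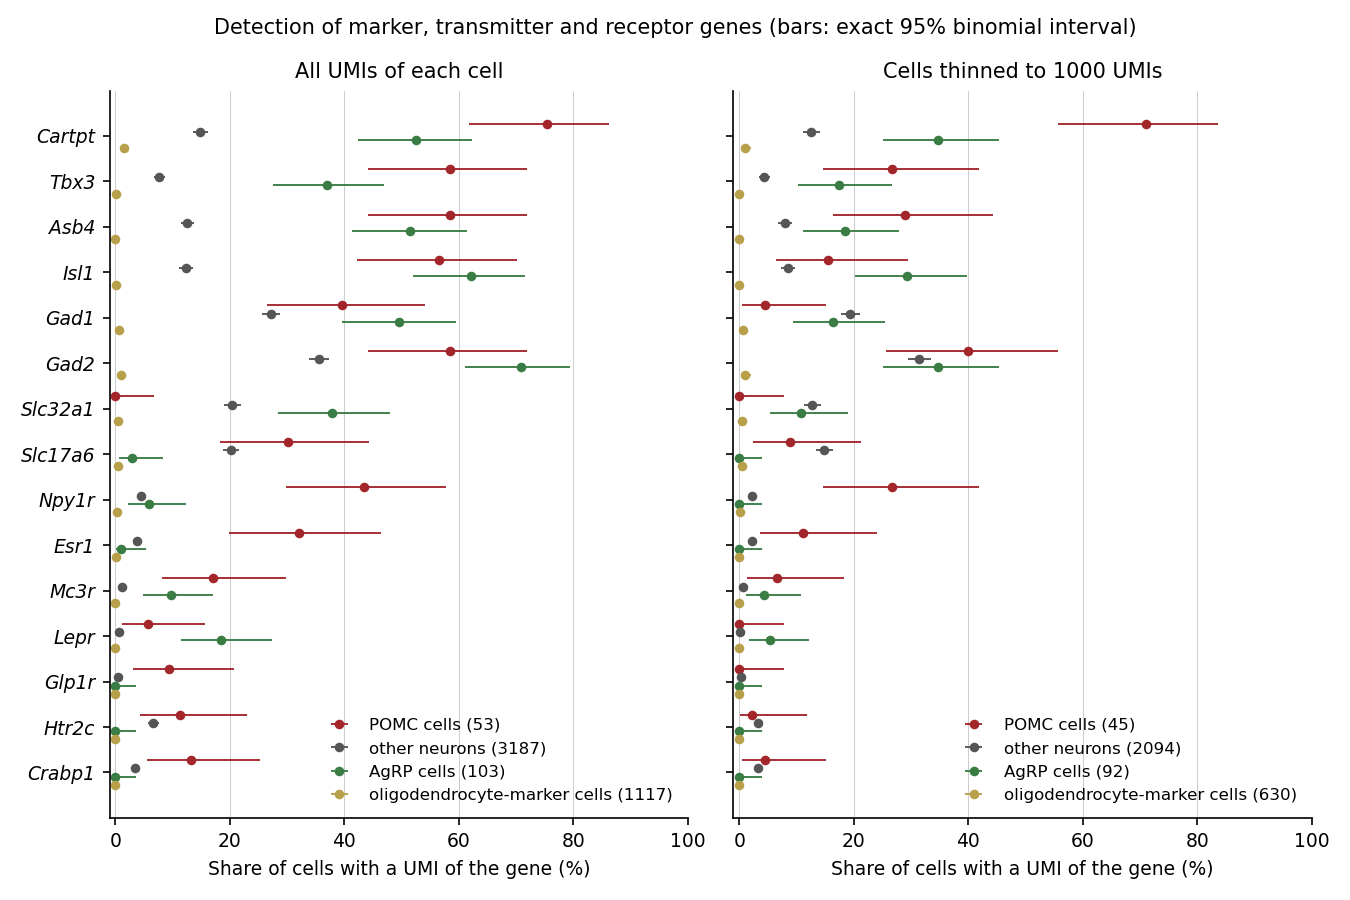
Share of cells with a UMI of each gene (x axis, percent) in the 53 POMC cells, 3187 other neurons, 103 AgRP cells and 1117 oligodendrocyte-marker cells, with all UMIs on the left and with cells thinned to 1000 UMIs on the right (45 POMC cells, 2094 other neurons, 92 AgRP cells and 630 oligodendrocyte-marker cells). Points are shares and bars exact 95% binomial intervals, which cover counting error only. Slc32a1 is at 0 in POMC cells in both panels, and Npy1r stands at 43.4% in POMC cells against 5.83% in AgRP cells and 4.39% in other neurons.

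Set against other neurons of the same libraries, POMC cells had higher levels of a short list of genes and few or no UMIs of several peptides of other hypothalamic neurons. Counts were summed per library and tested with edgeR, with library as a block. Of 9354 genes tested 31 were higher (0.331%) and 151 lower (1.61%) at an adjusted p under 0.05. The filter on low counts kept a gene that was high enough in either set. Other neurons held 7946675 UMIs against 302939 in POMC cells. Genes at 0 UMIs in POMC cells, such as Vip, Tac2, Otp, Dlx1, Lhx1, Slc32a1 and Vamp1, entered through other neurons and could only come out lower. The part of the filter in the split of calls was not tested. Without the Foxj1 and Ccdc153 cell the counts were 145 higher (1.59%) and 738 lower (8.08%) of 9129, and all 31 and all 151 were called again. The common dispersion of the fit fell from 0.108 to 0.0174 without that cell, and its prior degrees of freedom became infinite, so that every gene shared 1 estimate of spread and its p-values are very small. Adjusted p-values below are those of the 54 cells. The median log2 fold change over all genes tested was -0.26 (-0.13 with upper-quartile scaling), the shift against which single values stand. DESeq2 split the calls differently, with 50 higher and 68 lower genes. The comparison cells carried glial transcripts. Oligodendrocyte markers summed to 782 to 2445 CPM a library in other neurons. With comparison cells limited to those with at least 1% neuron UMIs, and without the Foxj1 and Ccdc153 cell, 111 genes were higher and 356 lower. All 31 and 120 of the 151 were among them.

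Most peptide genes tested were lower. Of 27 measured neuropeptide genes 23 were tested, 2 were higher and 15 lower (18 lower in the 53 cells), with a median log2 fold change of -3.01 once genes at 0 were set to their bound. Peptides at 0 UMIs in POMC cells passed the filter through other neurons, where they were high. The count of lower genes and the median are therefore not read as a result about peptides. Cartpt was higher at 9553 ± 3813 CPM (SD, n = 6 libraries, 53 cells) against 462 ± 131 in other neurons, a log2 fold change of 3.75 ± 0.26 (adjusted p = 7.57e-14) that stayed between 3.09 and 4.17 in the 21 alternatives. Pdyn, the precursor of dynorphin opioid peptides, was read in 31 of 54 cells at 273, 175 and 64.7 CPM for WT (274 in WT3 without the 1 cell) and 390, 422 and 292 for KO. Other neurons had 38.2 to 125 CPM, less than the POMC cells of the same library in 6 of 6 libraries, and the difference was 1.55 ± 0.32 (adjusted p = 0.00237). Avp, the vasopressin gene, had 2 UMIs in WT1, 5 in WT2 and 0 elsewhere, against 2389 to 6425 CPM in other neurons (log2 fold change -7.97 ± 0.39, adjusted p = 1.43e-18). Oxt, the oxytocin gene, had 7 UMIs in all, with 0 to 60.3 CPM against 48.6 to 3606 (-6.28 ± 0.42, adjusted p = 2.45e-14). Its ranges overlapped through KO2, where other neurons were lowest. Tac1, which encodes substance P, had 4 UMIs (-4.69 ± 0.51, adjusted p = 2.77e-08). Sst, the somatostatin gene, had 1 UMI, against 786 ± 473 CPM in other neurons. Vip and Tac2 had 0 UMIs and were at least 18.8-fold and 20.0-fold lower, against a floor of 3 UMIs over all 54 cells. AgRP cells also had little of most of these peptides. The 103 AgRP cells had 0 UMIs of Tac1 and Tac2, 1 of Vip, 47.0 CPM of Avp and 14.8 CPM of Oxt, while Sst stood at 435 CPM.

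Genes outside the lists were also higher. Cited1, a transcriptional coregulator, stood at 891 ± 290 CPM in the 53 cells against 135 ± 41.9 in other neurons (log2 fold change 2.16 ± 0.25, adjusted p = 1.09e-07). Rnf128, an E3 ubiquitin ligase, was read in 43 of 54 cells, at 390 to 904 CPM in the 53 cells against 51.6 to 123 (2.07 ± 0.29, adjusted p = 7.65e-06). Gfra1, a GDNF receptor, stood at 181 to 390 CPM in the 53 cells against 32.6 to 43.1, with no overlap between the sets. Serpina3n, a serine protease inhibitor, was higher at 60.3 to 713 CPM against 9.11 to 32.1, and Fam159b at 110 to 617 against 14.5 to 35.3. Serpina3n and H2-Q2, a class I histocompatibility gene that was also higher (2.12 ± 0.46), have near-identical relatives, and how the counting split such reads was not stated. Nppc, the C-type natriuretic peptide gene (2.58 ± 0.52), Plagl1, an imprinted zinc finger gene (1.97 ± 0.41), Kcnk2, a two-pore potassium channel (1.21 ± 0.30), Cpne4 (1.69 ± 0.40) and Stk32a (1.43 ± 0.33) completed the named genes. Some calls rested on single libraries. That of Kcnk2 was lost without WT2, KO1, KO2 or KO3 (adjusted p up to 0.708 over 21 alternatives), and Kcnk2 had 0 UMIs in WT3 outside the Foxj1 and Ccdc153 cell. Those of Cpne4 (lost without WT1, WT2 or KO3), Stk32a (WT1, WT2 or KO1), H2-Q2 (WT1 or KO1) and Plagl1 (WT1) reached adjusted p values up to 0.664, 0.865, 0.384 and 0.101.

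Some genes of a list of transcription factors of the arcuate nucleus and of other hypothalamic regions were higher and others lower. Of 32 measured, 18 were tested, 2 were higher and 3 lower, and 4 and 7 of 19 in the 53 cells. Tbx3 stood at 323, 252 and 51.7 CPM for WT and 303, 181 and 260 for KO, and at 219 in WT3 without the 1 cell. Other neurons had 22.5 to 70.6 CPM, and the difference was 1.98 ± 0.35 (adjusted p = 0.000489). Prdm12, a zinc finger factor known to be needed for Pomc expression, was higher on 7 UMIs in 6 cells (4.31 ± 0.97, adjusted p = 0.00746). Other neurons had 9 UMIs of Prdm12 (1.13 CPM). It thus passed the filter only through the POMC cells, where it was high, and its call is not read as support. Otp, Dlx1 and Lhx1, homeodomain factors, had 0 UMIs in all 54 cells and were at least 7.18-fold, 7.69-fold and 5.29-fold lower. Isl1, a LIM homeodomain factor that activates Pomc, was read in 30 cells. Its difference was 1.05 ± 0.33 with 54 cells (adjusted p = 0.094) and passed with 53 (1.32 ± 0.26). Nhlh2, a basic helix-loop-helix factor, likewise passed with 53 cells (1.61 ± 0.38) and not with 54 (1.47 ± 0.47).

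Receptors of neuropeptide Y and an insulin receptor substrate were higher. Of 38 measured receptor-list genes 26 were tested, 3 were higher and 1 lower, and in the 53 cells 7 and 2 of 25. Npy1r, a neuropeptide Y receptor, was read in 23 of 53 cells (43.4%) against 4.39% of other neurons, and after thinning in 26.7% against 2.20%. It had 12, 18 and 1 UMIs for WT and 16, 0 and 5 for KO (log2 fold change 2.56 ± 0.48, adjusted p = 0.000858). KO2, with 5 cells, gave none. Npy5r, another neuropeptide Y receptor, was higher on 20 UMIs (2.55 ± 0.60, adjusted p = 0.0101), as was Irs4, an insulin receptor substrate (1.42 ± 0.36, adjusted p = 0.0205), whose call was lost in 7 of 21 alternatives, among them without WT1, KO1, KO2 or KO3 (adjusted p up to 0.329). The Npy5r call was lost without KO1 or KO3 (up to 0.108). Ntrk2, the receptor of BDNF, was the 1 lower gene (-1.25 ± 0.27), lost without WT1, KO2 or KO3, by DESeq2, with no library block, and with comparison neurons of at least 1% neuron UMIs (-0.14, and -0.65 in the 53 cells). It stood at -0.10 with at least 3 Pomc UMIs (adjusted p = 0.913). Prlr, the prolactin receptor, Esr1, the oestrogen receptor α gene, Mc3r and Glp1r passed in the 53 cells only (1.14 ± 0.23, 1.92 ± 0.46, 2.90 ± 0.70 and 3.01 ± 0.95), while their values with 54 cells were 0.89 ± 0.31, 1.64 ± 0.57, 2.48 ± 0.76 and 2.95 ± 0.97. Esr1 was read in 17 of 53 cells (32.1%), Mc3r in 9 (17.0%) and Glp1r in 5 (9.43%), with thinned shares of 11.1%, 6.67% and 0% against 2.20%, 0.621% and 0.382% in other neurons. Mc3r and Glp1r had 5.16 and 2.52 CPM in other neurons, so the limit of the filter given above bears on both. Htr2c, the serotonin 2C receptor gene, was read in 6 of 53 cells (11.3%, 4.27 to 23.0%) against 6.62% of other neurons, and Lepr, the leptin receptor gene, in 3 (5.66%, 1.18 to 15.7%) against 0.565%. At 1000 UMIs neither Lepr nor Glp1r was detectable in the 45 POMC cells (upper interval bound 7.87%). Asb4 was the 1 of 27 tested leptin and insulin signalling genes that was higher (1 higher and 1 lower of 26 in the 53 cells). It had 522, 853 and 90.6 CPM for WT and 1147, 301 and 455 for KO, against 78.9 to 125 in other neurons (2.09 ± 0.30, adjusted p = 1.33e-05). Of these 6 libraries only WT3 overlapped the other neurons, and it stood at 384 CPM without the 1 cell.

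With 54 cells, the genes of fast transmission and vesicle release that passed were lower. The 2 sets were not chosen alike, as other neurons needed at least 5 neuron-gene UMIs and POMC cells at least 1. Neuron genes made up a median of 2.20% of the UMIs in other neurons and 1.40% in POMC cells. The part of this unequal choice in the lower values was not tested beyond the alternative thresholds. Of 23 tested GABA and glutamate genes 0 were higher and 4 lower (0 and 8 in the 53 cells). Slc32a1, at 0 UMIs, was at least 12.8-fold below the 89.3 to 171 CPM of other neurons. Grik2, a kainate receptor subunit, was lower on 5 UMIs in 5 cells, a call lost without any 1 of WT1, WT2, KO1, KO2 or KO3 (adjusted p up to 0.794). Gad1 (-1.13 ± 0.35, adjusted p = 0.091) and Slc17a6 (-1.15 ± 0.36, adjusted p = 0.0977) passed in the 53 cells only, at -0.84 ± 0.27 and -0.84 ± 0.28. Of 21 vesicle release genes 4 were lower, among them Cplx2, a complexin (-1.88 ± 0.38, adjusted p = 0.00178), Vamp1 and Syn2. In the 53 cells 5 were lower and 1 was higher, Syt4, a synaptotagmin (0.47 ± 0.17). Vamp1 had 0 UMIs (at least 4.68-fold lower; adjusted p = 0.052 without KO3). The Syn2 call was lost without WT1, WT2, KO1 or KO2 (up to 0.386). It was also lost with comparison neurons of at least 1 neuron UMI, where the calls of Slc32a1, Grik2, Cplx2 and Vamp1 were kept. Scn3a, a sodium channel, was the 1 of 22 ion channel genes to pass (-1.74 ± 0.39, adjusted p = 0.00746), lost without WT2 or KO3 (up to 0.0766). Scn3a was again lower in the 53 cells, and Scn9a, another sodium channel, was higher (0.82 ± 0.22). Th, the rate-limiting enzyme of dopamine synthesis, had 2 UMIs, both in 1 WT1 cell, against 70.0 ± 39.3 CPM in other neurons, and its call was lost without WT2 or KO3 (up to 0.110).

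Few genes of the machinery that cuts and packs the precursor were called. Of 17 tested genes of prohormone processing and granules 0 were higher and 2 lower, and 3 and 4 in the 53 cells, around a median of -0.01 (0.21 in the 53 cells). Pcsk1, the convertase that opens POMC, had 49 UMIs in 26 cells, at 162 CPM over the 54 cells against 92.0 in other neurons, and did not pass (0.46 ± 0.36). Pcsk2, which cuts further, had 172 CPM against 216 (-0.42 ± 0.28). Cpe, carboxypeptidase E, was lower (-0.92 ± 0.21, adjusted p = 0.00892), but not with comparison neurons of at least 1% neuron UMIs, nor without WT1, KO2 or KO3 (up to 0.392). Nnat, neuronatin, was the other lower gene (-2.29 ± 0.38), lost without KO2, with no library block, and with comparison neurons of at least 1% neuron UMIs (-0.91, while it passed there in the 53 cells at -1.56). It stood at -0.14 with at least 3 Pomc UMIs (adjusted p = 0.904). Resp18, Vgf and Scg3, granule proteins, were higher in the 53 cells (0.81 ± 0.13, 1.02 ± 0.22 and 0.58 ± 0.16). The 4 lower genes there included Cpe and Nnat. Of the other lists, mitochondrial genome transcripts had 0 higher and 2 lower of 10 (5 lower in the 53 cells), mt-Rnr1 (-1.06 ± 0.21) and mt-Rnr2 (-0.83 ± 0.20), the second lost without WT1, KO2 or KO3 (up to 0.612). The nuclear respiratory chain had 0 called of 26 and retinoid genes 0 of 7. Of the IDOL targets and lipoprotein handling genes Apoe was the 1 lower of 16 (-2.70 ± 0.50), lost without KO2 or KO3 (up to 0.893). In the 53 cells 6 of 14 were lower, Apoe, Vldlr (-2.57 ± 0.58) and Clu (-0.49 ± 0.17) among them, and the median was -0.80. The Vldlr call rested on 4 UMIs in 4 of the 53 cells. The Apoe value with 54 cells turned to 0.30 with comparison neurons of at least 1% neuron UMIs, and its call in the 53 cells was lost there too. Astrocyte markers summed to 307 to 751 CPM a library in the unrestricted comparison cells. Immediate early genes had 0 called of 13 with 54 cells and 10 lower in the 53 cells, Egr1 (-2.35 ± 0.29) and Fos (-1.26 ± 0.16) among them.

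AgRP cells were close to POMC cells in depth. Of 1648 genes tested 36 were higher in POMC cells (2.18%) and 48 lower (2.91%). In the 53 cells 44 of 1439 were higher (3.06%) and 63 lower (4.38%), and 26 and 42 of the calls were shared. Ccdc153, Tmem212, Rarres2 and Apoe were among the 10 higher genes not called without the Foxj1 and Ccdc153 cell. Oligodendrocyte markers summed to 12973 CPM in the 8 AgRP cells of WT3 and to 210 to 2830 in the other libraries. The part of these markers in the result was not tested.

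All 4 peptide genes tested were called, 2 in each direction. Npy had 2 UMIs in WT1 and 12 in WT3, all 12 in the Foxj1 and Ccdc153 cell, against 8247 to 18401 CPM in AgRP cells (log2 fold change -7.95 ± 0.50, adjusted p = 1.93e-08). Pdyn was read in 31 POMC cells and had 1 UMI in the 103 AgRP cells, while Sst had 1 UMI in POMC cells and 0 to 1935 CPM in AgRP cells. Cartpt was higher in POMC cells by 3.40 ± 0.31 (adjusted p = 1.33e-06) even though 52.4% of AgRP cells had it. Otp had 0 UMIs in POMC cells and 349 to 1037 CPM in AgRP cells, and was at least 63.2-fold lower. Under the same filter Otp entered this test through the AgRP cells, and Pdyn, with 1 UMI there, through the POMC cells. Tbx3 (0.30 ± 0.33) and Asb4 (1.03 ± 0.32, adjusted p = 0.0869) did not pass between them with 54 cells. Asb4 passed with 53.

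Genes outside the lists were higher than in AgRP cells too, named by the size of their p. Calb1, the calbindin gene, stood at 841 ± 299 CPM in the 53 POMC cells, 541 to 1317 a library, against 0 to 158 in AgRP cells (4.31 ± 0.54, adjusted p = 4.76e-05). Rnf128 (4.18 ± 0.37), Alcam, a cell adhesion molecule (3.83 ± 0.37), Tmem35 (4.45 ± 0.50) and Nefl, a neurofilament subunit (3.37 ± 0.39), were also higher. Alcam had 422 to 757 CPM in the 53 cells against 0 to 91.9. Receptors went both ways, with 2 of 8 tested higher and 4 lower. Prlr (3.20 ± 0.48, adjusted p = 0.00028) and Npy1r (3.36 ± 0.67, adjusted p = 0.00505) were higher. Ghr, the growth hormone receptor (-2.94 ± 0.48), Npy2r, a neuropeptide Y receptor (-1.96 ± 0.43), Nr3c1, the glucocorticoid receptor (-1.46 ± 0.28), and Irs4 (-1.17 ± 0.30) were lower. The calls of Npy1r without WT1 (adjusted p = 0.0508) and of Npy2r without KO3 (0.0685) were lost. Lepr, too low to be tested, was read in 18.4% of AgRP cells (11.5 to 27.3%) and in 5.66% of POMC cells. The intervals overlap, pool cells of all libraries and cover counting error only. Among the other lower genes were Rgs2, a regulator of G-protein signalling (-2.41 ± 0.27), Acvr1c, an activin receptor (-3.57 ± 0.47), and Arhgap36 (-3.60 ± 0.47). Of 15 processing and granule genes Scg3 (0.70 ± 0.17), Chgb (0.69 ± 0.18) and Nnat (2.03 ± 0.33) were higher and Pcsk1n, an inhibitor of the convertase PCSK1 (-1.27 ± 0.17), and Resp18 (-0.64 ± 0.17) lower. Nnat had 337 of its UMIs in WT3 and stood at 1.06 ± 0.28 in the 53 cells. Resp18 did not pass in the 53 cells, and without WT1, KO1, KO2 or KO3 (up to 0.244). Scg3 did not pass without WT1, WT2 or KO1 (up to 0.549), nor Chgb without WT1, WT2, KO1 or KO3 (up to 0.407). Of 8 immediate early genes 3 were lower, Jun, Btg2 and Fos, and 6 in the 53 cells. Fos stood at 577 ± 441 CPM in the 53 POMC cells against 2103 ± 540 in AgRP cells. With 54 cells the Fos call was lost without any 1 of WT1, WT2, KO1, KO2 or KO3 (up to 0.719), that of Btg2 without WT1, WT2, KO1 or KO3 (up to 0.509) and that of Jun without WT1, KO1 or KO2 (up to 0.176).

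**Figure D3:**
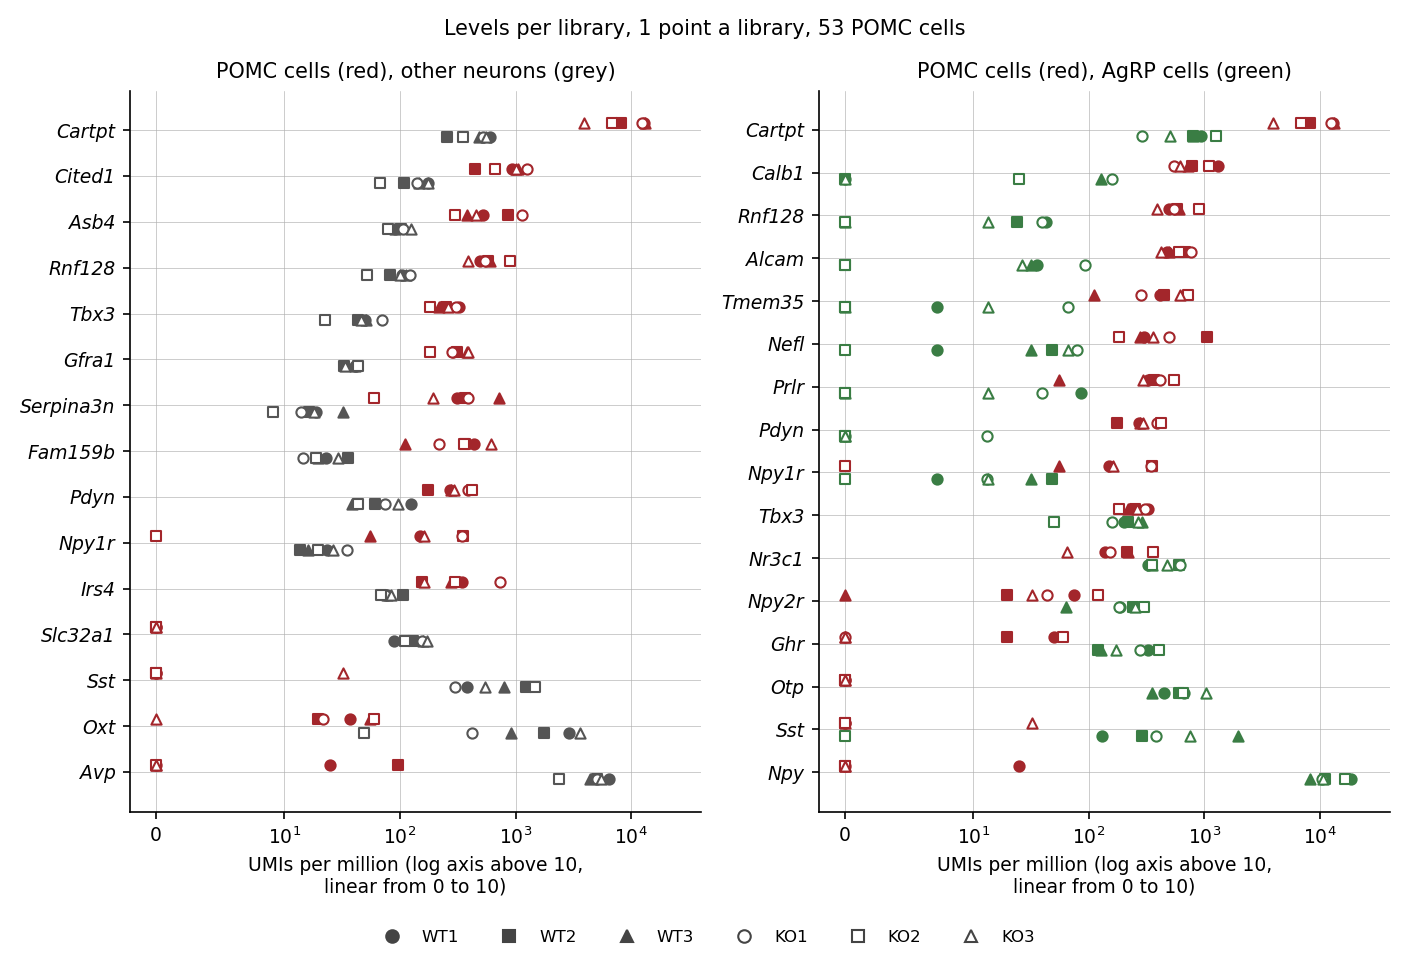
Levels in UMIs per 1000000 (x axis, log above 10) of 15 genes (left) and 16 genes (right), 1 point a library, in POMC cells (red, 53 cells) against other neurons (grey, left) and AgRP cells (green, right); filled symbols are WT and open symbols KO libraries. Cartpt separates the sets in both panels, while Tbx3 overlaps between POMC and AgRP cells.

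The KO comparison within POMC cells rested on 31 WT and 23 KO cells and gave no called gene. Mylip had 0, 1 and 2 UMIs in the POMC cells of the WT libraries and 0 in each KO library, too few for a test, and the 2 of WT3 lay in the Foxj1 and Ccdc153 cell. Vldlr, a known IDOL target, had 3, 0 and 7 UMIs for WT and 1, 0 and 0 for KO, and Lrp8, another, 3, 1 and 3 against 2, 1 and 1. All 7 Vldlr UMIs of WT3 came from the Foxj1 and Ccdc153 cell. At 16595 to 80497 UMIs a library neither could be compared.

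POMC cells made up 1.80%, 3.42% and 1.31% of neurons (POMC cells plus other neurons) for WT and 1.91%, 0.706% and 1.499% for KO. WT2 was the highest and KO2 the lowest, and the groups overlapped. The means were 2.18 ± 1.10% in WT and 1.37 ± 0.613% in KO (SD, n = 3 libraries each), a difference of -0.803 percentage points (two-sided exact permutation p = 0.5, where 3 against 3 allows no p below 0.1). It was -0.181 without WT2, -0.470 without KO2 and -1.23 without WT3. WT3 had 0.987% in the 53 cells, where the difference was -0.695. Over all passing cells, where Pomc was not used to choose cells, Pomc stood at 281, 506 and 348 CPM for WT and 288, 92.0 and 154 for KO. Only KO1 reached the WT range. The log2 fold change was -1.07 ± 0.39 (edgeR's quasi-likelihood test, unadjusted p = 0.0236, adjusted p = 0.9996 over 13085 genes), which did not pass after adjustment. The unadjusted p of the same test was 0.105 without WT2, 0.0542 without KO2 and 0.00147 without KO1. The log2 fold change was -1.61 without KO1 and -0.76 without KO2. Fewer POMC cells and less Pomc RNA per cell cannot be told apart in this sum.

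Of 1019 genes tested between KO and WT in the 54 cells 0 were called by edgeR (0%), 31 had an unadjusted p under 0.05, and DESeq2 called 0 (17 at an unadjusted p under 0.05). In the 53 cells 0 of 806 were called (0%) and 30 had an unadjusted p under 0.05. The libraries of the groups did not overlap in CPM for 101 genes (9.91%), and for 82 (10.2%) in the 53 cells. Random labels would separate 3 against 3 libraries with a probability of 0.1, and both shares lie near it. Ppp3ca, a catalytic subunit of calcineurin, had the smallest p of the genes with a positive value, at 124, 213 and 103 CPM for WT against 390, 482 and 552 for KO (1.49 ± 0.40, adjusted p = 0.901). Its groups did not overlap, with 54 or 53 cells. Arl4c (1.89 ± 0.60), Aurkaip1 (1.21 ± 0.47) and Syngr3, a synaptic vesicle protein (1.46 ± 0.58), were among the next smallest p of positive values, also with no overlap. Genes picked for a small p tend to separate, so the lack of overlap adds no support for these genes or Ppp3ca. The 5 genes named next, with negative values, were highest in WT3. Sparcl1, an extracellular matrix gene, had 48, 8 and 121 UMIs for WT and 2, 1 and 7 for KO (-3.26 ± 0.91). In WT3 it stood at 1565 CPM with the Foxj1 and Ccdc153 cell and at 219 without it. Clu, apolipoprotein J, stood at -2.14 ± 0.65 with that cell and -0.79 without it, Fos at -2.30 ± 0.70 and -0.84, and Cd63 at -1.55 ± 0.51 and -0.90. Laptm4a (-2.14 ± 0.71) was not tested in the 53 cells.

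By list, 0 genes were called in any. The neuropeptide list had Cartpt (-0.17 ± 0.50) and Pdyn (0.90 ± 0.46) tested. Prohormone processing genes had a median of -0.17 over 13 tested, the nuclear respiratory chain -0.31 over 24, mitochondrial genome transcripts -0.31 over 8 and vesicle release genes 0.08 over 8, against -0.03 over all 1019. These 4 lists had medians of -0.36, -0.16, -0.25 and -0.16 in the 53 cells. The difference between the KO effect in POMC cells and that in other neurons passed for 0 of 9354 genes (0%) by edgeR (interaction term with library as a block, 473 at an unadjusted p under 0.05 and 0 by DESeq2, 106 unadjusted). In simulated data this edgeR test recovered 25.5% of the 8-fold changes put in, so 0 calls do not show that the KO effects are alike. Leaving out WT1 gave 90 calls and leaving out WT2 gave 14, and leaving out the Foxj1 and Ccdc153 cell gave 0.

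**Figure D4:**
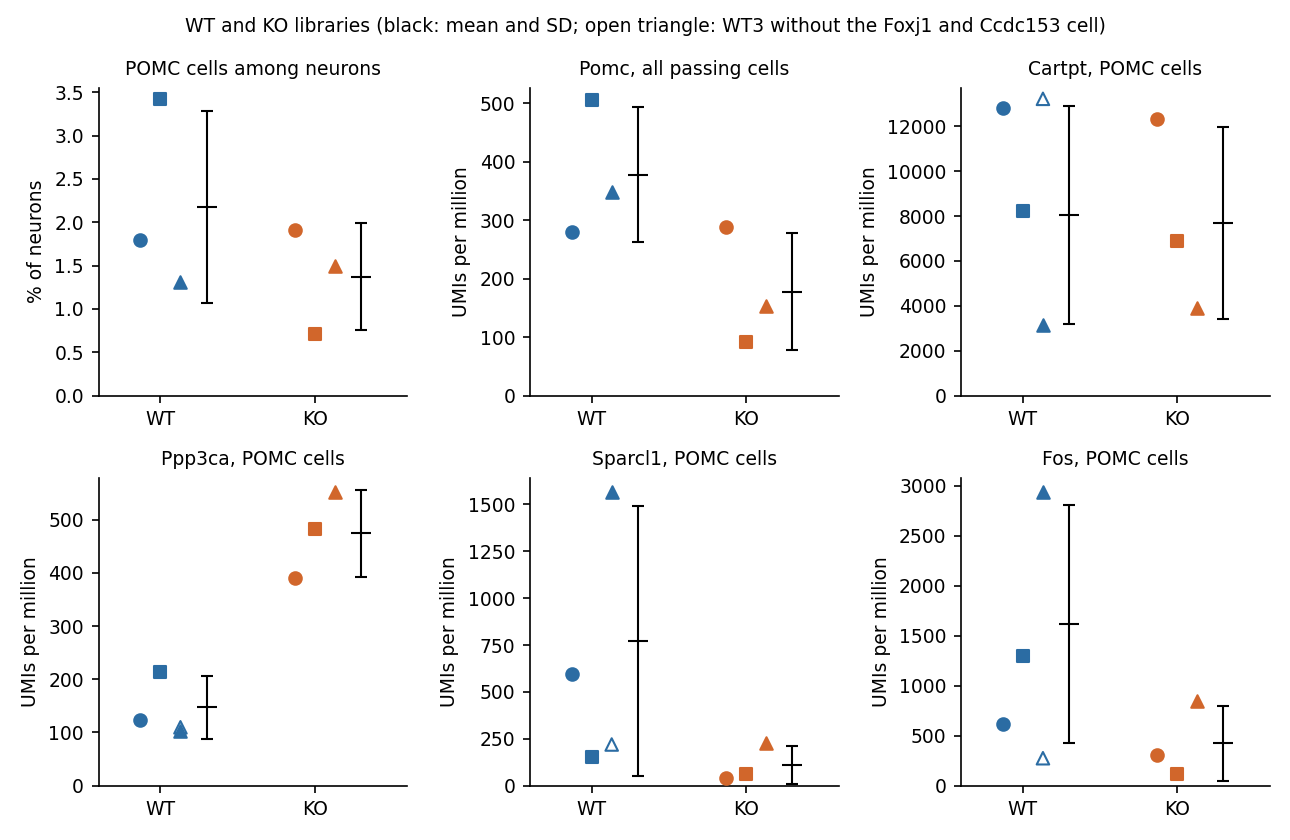
WT (blue) and KO (orange) libraries: the share of POMC cells among neurons (percent), Pomc over all passing cells, and Cartpt, Ppp3ca, Sparcl1 and Fos in POMC cells (UMIs per 1000000, y axes), 1 point a library, with mean and SD of 3 libraries in black. Open triangles show WT3 without the Foxj1 and Ccdc153 cell, which lowers Sparcl1 and Fos in WT3 and raises Cartpt, while Ppp3ca hardly moves.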

How the data were processed

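Single-cell RNA of hypothalamus was measured by Drop-seq in 6 libraries. The authors deposited 1 table of raw UMI counts of 18204 genes in 13994 cell barcodes, with no columns of other samples (0). The submitters' processing notes name bcl2fastq, STAR 2.5.0c and the builds GRCm38 and mm10; the counting program, annotation, strand and barcode rule are not given in the sources used here. Coordinates are from GENCODE M21 (GRCm38), which held 93.9% of the symbols, and promoters from RefSeq (GRCm38.p6).

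Cells were filtered as stated in the report and not filtered on doublets (Scrublet in scanpy 1.11.5, expected rate 5%, was an alternative). Raw counts were summed per library and cell set and tested in R 4.3.3 by the quasi-likelihood F-test of edgeR 4.0.16 after filterByExpr and TMM scaling (Benjamini-Hochberg at 0.05 over all genes tested), the 7 genes of the rule staying out of the tests on POMC cells. CPM are UMIs per 1000000 UMIs of the set. The tests were tried on simulated data first. Thinned shares used 1000 UMIs a cell. Folds against 0 used a floor of 3 UMIs over the set.

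The members, gene lists and tests were chosen with earlier results of these data known. Named genes were, per list, up to 6 called genes a direction (3 against AgRP cells), beyond the lists the 15 higher and 8 lower of smallest p with a change of at least 2-fold and one direction in every library (8 and 8 against AgRP cells), and, for KO against WT, the 5 and 5 of smallest p and up to 4 a list. Pcsk1, Pcsk2, Isl1, Nhlh2, Hdc, Irs4 against AgRP cells, the genes of the Foxj1 and Ccdc153 cell and list genes called in the 53 cells alone were named after their values were seen. Some genes that the rule names are not reported here.

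Replicate numbers were not used to pair the libraries in the main tests. Same-numbered WT and KO libraries correlated at 0.256, -0.152 and 0.230 over all passing cells, and differently numbered ones at -0.367 to 0.147. These values do not settle whether the numbers mark pairs. Alternatives were DESeq2 1.42.0, upper-quartile scaling, no filter, other cell, Pomc and neuron thresholds, doublets left out, thinning to 500 UMIs, and each library left out.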

Additional observations from a re-analysis of the deposited data

How the results depend on the processing

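The number of genes higher and lower in POMC cells than in other neurons (31 and 151) moved with most choices. It was 50 and 68 with DESeq2, 142 and 670 with at least 10 Pomc UMIs, 145 and 738 without the Foxj1 and Ccdc153 cell, and 151 and 559 without libraries under 5 members (that is, without WT3). With comparison neurons of at least 1 neuron UMI it was 50 and 744, of at least 1% neuron UMIs 72 and 239, and with that and without the 1 cell 111 and 356. Higher genes numbered 74 with at least 3 Pomc UMIs and 4 with cells thinned to 500 UMIs. Lower genes numbered 232 with no filter and 91 with no replicate block. Leaving out 1 library gave 15 to 151 higher (16 without WT1, 19 without KO1, 15 without KO3, 151 without WT3) and 78 to 559 lower (93 without WT1, 78 without KO2, 81 without KO3, 559 without WT3).

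Against AgRP cells (36 and 48) the counts were 97 and 93 with no filter, 9 and 18 with no replicate block, 267 and 93 with at least 3 Pomc UMIs and 4 and 10 after thinning, with 21 higher by DESeq2. Leaving out 1 library gave 25 to 50 higher and 22 to 66 lower (22 without WT1, 30 without KO3).

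KO against WT (0 called) gave 163 with no filter, 2 with the replicate block, and 0 to 0 without any 1 library. The interaction (0) gave 25 with upper-quartile scaling, 19 with no filter, 34 with at least 1 neuron UMI, 20 with at least 1% neuron UMIs, and 0 to 90 without 1 library. No replicate block could be added to it, since library is already a block. Over all passing cells the replicate block called 1 gene, other than Pomc, against 0 without it, and the Pomc change was -1.17 (adjusted p = 0.999). The cause of these moves was not tested.

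The share difference ranged from -1.23 to -0.181 percentage points and the Pomc change from -1.61 to -0.76 without 1 library. Of the single genes, Apoe against other neurons turned to 0.22 (at least 3 Pomc UMIs) and 0.30 (at least 1% neuron UMIs), Stk32a to -0.36 (thinned), and Cartpt in KO to 0.22 without WT1 and 0.13 without KO3. The other values of named genes kept their direction: 873 of 974 kept their call against other neurons and 98 lost it, and 440 of 489 kept it against AgRP cells and 49 lost it. With 4 to 15 POMC cells and 16595 to 80497 of their UMIs a library, genes of a few UMIs could not be compared between genotypes.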

Other observations

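Outside the selected cells, 4 barcodes that failed the cell filters had 5 to 13 Pomc UMIs, 3 of them with under 300 genes and 1 with over 20% mitochondrial UMIs. Hdc, the histamine synthesis enzyme, had 47 UMIs in the 54 cells, all in the Foxj1 and Ccdc153 cell and none in the other 53. That cell also held 337 UMIs of Rarres2, 130 of Dynlrb2 and 12 of Npy, beside 1 of Cartpt and 0 of Asb4 and Tbx3.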
